A study of Mus musculus with 8 samples.

Results

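The Siglecs are sialic acid-binding receptors of the immunoglobulin superfamily, and 7 of their mouse genes were followed across 8 arrays of peritoneal macrophages: Siglecf, Siglecg, Cd33, Siglece, Siglech, Siglec1 and Mag. The members were chosen by name, as every probe set annotated to these genes or to an older symbol of them, with the lower Siglecf level under hormone in these data already known. They were read by 9 probe sets of 45037, 3 of them for Siglec1 and 1 for each other gene, and make up 7 of the 18193 genes measured. The corticosterone differences of the members are therefore given as descriptions with their standard errors and no test, while the genotype differences were tested. The cells came from male C57BL6/J mice that received aged 3% thioglycolate in the peritoneal cavity, and they were collected 4 days later and purified by adherence in medium with 10% serum. Control mice carried the MR fl / fl genotype, in which the mineralocorticoid receptor gene Nr3c2 is flanked by loxP sites and intact. Knockout mice carried MR fl / fl, LysM cre, where Cre under the lysozyme M promoter acts in myeloid cells and leaves the gene intact in other cells. Cultures of each genotype stood for 24 h untreated or with 1 µM corticosterone, an adrenal glucocorticoid, and each of the 4 groups has 2 arrays. Each sample was pooled from triplicate experiments, so a p-value reflects only how far these pools differ, and that spread may be technical.

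Most Siglecs of the CD33-related branch carry a tyrosine motif called ITIM in the cytoplasmic tail, which recruits the phosphatases SHP-1 and SHP-2 and dampens activating receptors on the same cell. Src family kinases phosphorylate this motif. Siglec-H instead pairs with the activating adaptor DAP12, and sialoadhesin, the product of Siglec1, has a long extracellular part and no such motif.

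The levels below are log2 units after robust multi-array averaging, in which the deposited values of all arrays share nearly the same distribution. Array medians lay between 5.55 and 5.58. Nr3c2, the targeted gene, read 6.39 and 8.46 in control cells without and 6.39 and 6.13 with corticosterone, and 5.54 and 5.82 in knockout cells without and 5.11 and 5.47 with it. Each knockout array thus lay below each control array, but the sources used here do not say whether the probe set reads the deleted exons. Fkbp5, a direct target of the glucocorticoid receptor, lay between 8.08 and 8.72 on the untreated arrays and between 11.93 and 12.07 on the treated ones. The macrophage genes Lyz2 and Csf1r were above 13.5 on every array. Control untreated replicate 2 stood apart, with a median correlation of 0.916 with the other arrays against 0.995 to 0.996 for each of them, and with a 3′ minus 5′ difference of 2.18 for Actb probe sets against 0.41 to 0.62, a measure that grows as RNA breaks. Its mean over the mesothelial and fibroblast markers was 8.72, against 7.12 to 7.55 elsewhere. The fibroblast genes Col1a1, Col1a2, Col3a1, Dcn, Lum and Pdgfra read highest there, Pdgfra at 12.05 against 7.73 to 8.57. The mesothelial genes did not. Krt18 read 4.62 there against 6.19 to 6.92, and Msln, Upk3b and Krt19 lay within the range of the other arrays. Comparisons were fitted with all 8 arrays and with the 7 without this array, and the second fit leaves 1 control untreated array, taken to vary as arrays of the other groups do.

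**Figure D1:**
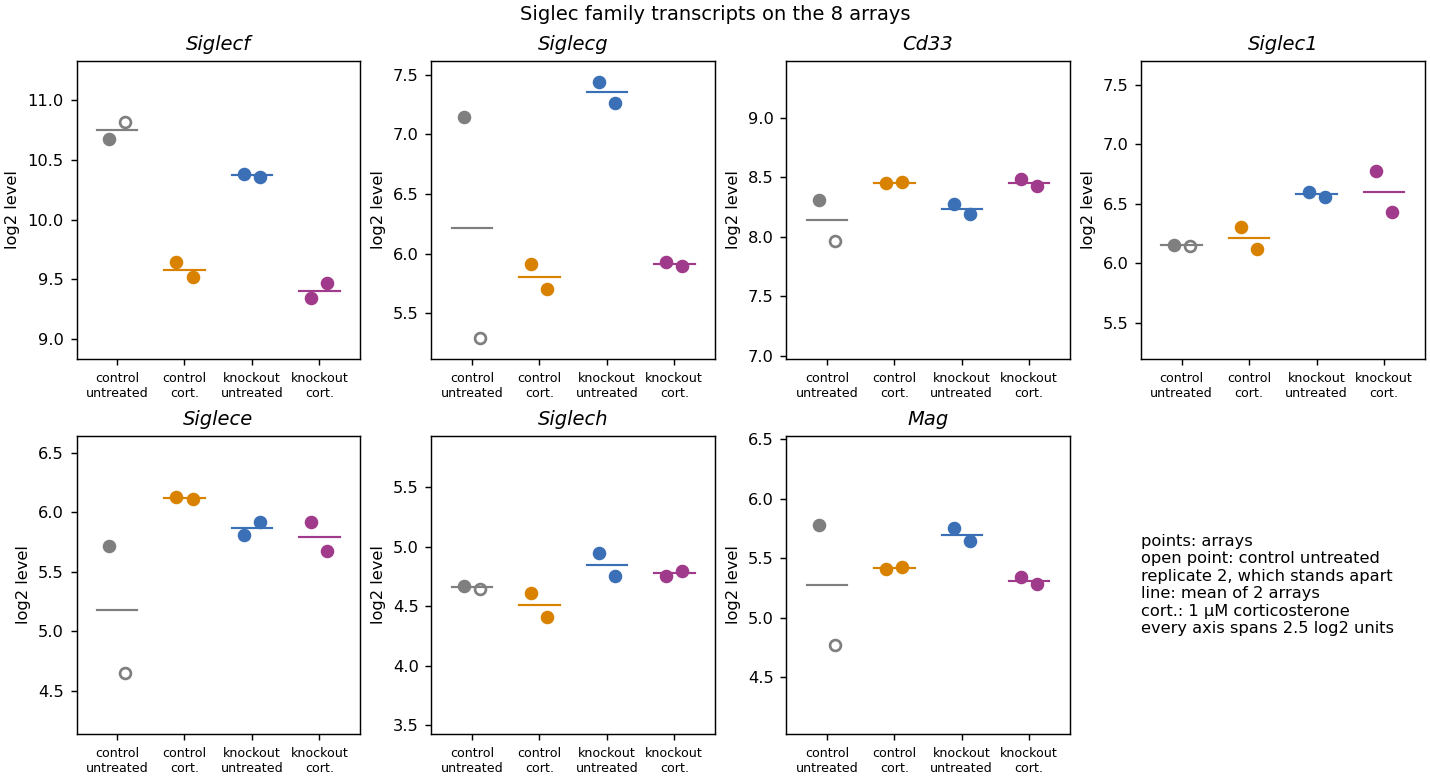
Log2 level of the 7 Siglec family genes on each of the 8 arrays, by group, with the line at the mean of 2 arrays and an open point for control untreated replicate 2; every axis spans 2.5 log2 units. Siglecf and Siglecg lie lower with corticosterone in both genotypes, apart from the open point of Siglecg, and over the filled points the other 5 genes range over 0.29 to 0.66 log2 units.

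Siglecf lay about 1 log2 unit lower with corticosterone in both genotypes. It encodes Siglec-F, an ITIM-bearing receptor best known from eosinophils and alveolar macrophages. The gene lies at chr7:43351341-43359475 (assembly GRCm38.p6) in the cluster that holds the CD33-related genes. Its level was 10.68 and 10.82 in control cells without and 9.64 and 9.51 with corticosterone, and 10.39 and 10.36 in knockout cells without and 9.34 and 9.47 with it. All 4 treated arrays lay below all 4 untreated arrays, with no overlap in either genotype. The difference was -1.10 (SE 0.08) in control cells and -0.97 (SE 0.06) in knockout cells with 7 arrays, levels 2.15-fold and 1.95-fold lower. With 8 arrays it was -1.17 (SE 0.11) and -0.97 (SE 0.11). On the array that stood apart Siglecf read highest of all 8, while Siglecg, Cd33, Siglece and Mag read lowest there.

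RefSeq gives windows around a start of Siglecf and of Cd33 (250 bases before to 50 after it, GRCm38.p6, printed in the direction of the gene). They are shown because this pair had the longest common run of letters among the members, while the 2 transcripts differed in opposite directions with corticosterone. The Cd33 window lies inside the span of its gene, chr7:43527399-43537424, and not at the outer end. Capitals mark the stretch that a local alignment of the windows matched, 80 columns with 62 identical letters (77.5%) and 1 gap.
Siglecf chr7:43351091-43351390 plus strand: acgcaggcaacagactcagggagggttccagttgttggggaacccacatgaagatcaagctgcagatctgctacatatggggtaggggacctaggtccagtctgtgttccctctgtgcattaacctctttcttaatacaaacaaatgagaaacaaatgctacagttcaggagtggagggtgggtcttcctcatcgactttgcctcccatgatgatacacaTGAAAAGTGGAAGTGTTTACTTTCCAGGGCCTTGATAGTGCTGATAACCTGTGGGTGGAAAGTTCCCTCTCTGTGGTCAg
Cd33 chr7:43533122-43533421 minus strand: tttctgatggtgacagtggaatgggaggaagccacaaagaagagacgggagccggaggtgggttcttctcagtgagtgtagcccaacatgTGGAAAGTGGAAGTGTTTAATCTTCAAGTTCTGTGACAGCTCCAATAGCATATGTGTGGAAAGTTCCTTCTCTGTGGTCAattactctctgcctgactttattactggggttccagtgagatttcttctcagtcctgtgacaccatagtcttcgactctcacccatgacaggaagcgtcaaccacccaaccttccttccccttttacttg
The stretch spans positions -30 to 48 from the start that the window uses in Siglecf and -160 to -81 in Cd33. The same letters thus lie at different distances from these window starts, and for Cd33 that start is inside the gene. Within it both hold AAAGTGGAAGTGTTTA, 16 bases that occurred in 2 of 32851 windows (0.00609%), which are these 2. No other pair of members shared a run longer than 10 bases. The ETS core GGAAGT, searched on both strands, was in the windows of Siglecf, Cd33 and Siglech, and in 23.8% of all windows. The hexamer AGAACA of steroid receptor elements, on either strand, was in none of the members' windows and in 19% of all windows, and the palindromic glucocorticoid response element was in none of them and in 0.475% of all. Windows were at hand for 6 of the 7 members. These matches describe the letters of short windows and say nothing of binding.

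Siglecg was lower with corticosterone by more than 1 log2 unit in knockout cells, and in control cells only when the array that stood apart was left out. Siglec-G is an inhibitory receptor of B cells, with a known role in the B-1 cells of the peritoneal cavity. Its level was 7.14 and 5.29 in control cells without and 5.91 and 5.70 with corticosterone, and 7.44 and 7.27 in knockout cells without and 5.93 and 5.89 with it. The knockout groups did not overlap. In control cells replicate 1 was above both treated arrays and replicate 2 below both. The difference was -1.44 (SE 0.13) in knockout cells and -1.34 (SE 0.16) in control cells with 7 arrays, levels 2.71-fold and 2.53-fold lower. With 8 arrays the control value was -0.41 (SE 0.58).

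The B cell markers moved with Siglecg over the 7 arrays. Their mean over 8 genes was 7.32 and 6.84 in control cells without and 6.35 on both arrays with corticosterone. In knockout cells it was 7.60 and 7.51 without and 6.42 and 6.44 with it. On control untreated replicate 2 the marker mean, at 6.84, lay above every treated array, whereas Siglecg, at 5.29, lay below every treated array. That mean drew on Ebf1, which read 11.99 there against 8.60 to 9.54 on the other arrays. Blk (5.52) and Cr2 (3.39) lay below every treated array on it, as Siglecg did. Ms4a1, Cd79a, Fcrla and Pax5 lay above every treated array, and Cd79b lay among them. With 7 arrays 6 of the 8 fell with corticosterone in each genotype and none rose (limma, adjusted p under 0.05). The median difference over the 8 was -1.09 in control and -1.38 in knockout cells, against -0.005 and -0.02 over all genes. Ms4a1, which encodes CD20, fell by 1.65 in control cells and fell by 1.96 in knockout cells. With 8 arrays Ms4a1 differed by -1.08 in control cells (SE 0.38, limma adjusted p = 0.430). In the bulk samples fewer cells of a type and less RNA per cell cannot be told apart, and the part of B cells in the difference of Siglecg was not tested.

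Cd22, the B cell Siglec that is no member of the set, ran the same way. Its level was 10.49 and 9.94 in control cells without and 9.69 and 9.71 with corticosterone, and 10.36 and 10.48 in knockout cells without and 9.48 and 9.45 with it. Treated and untreated arrays did not overlap in either genotype. Cd22 fell by 0.79 in control cells (SE 0.06, limma adjusted p = 6.13e-05) and by 0.95 in knockout cells (SE 0.05, adjusted p = 3.22e-06) with 7 arrays. With 8 arrays the control difference was -0.51 (SE 0.19) and did not pass (limma adjusted p = 0.430).

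**Figure D2:**
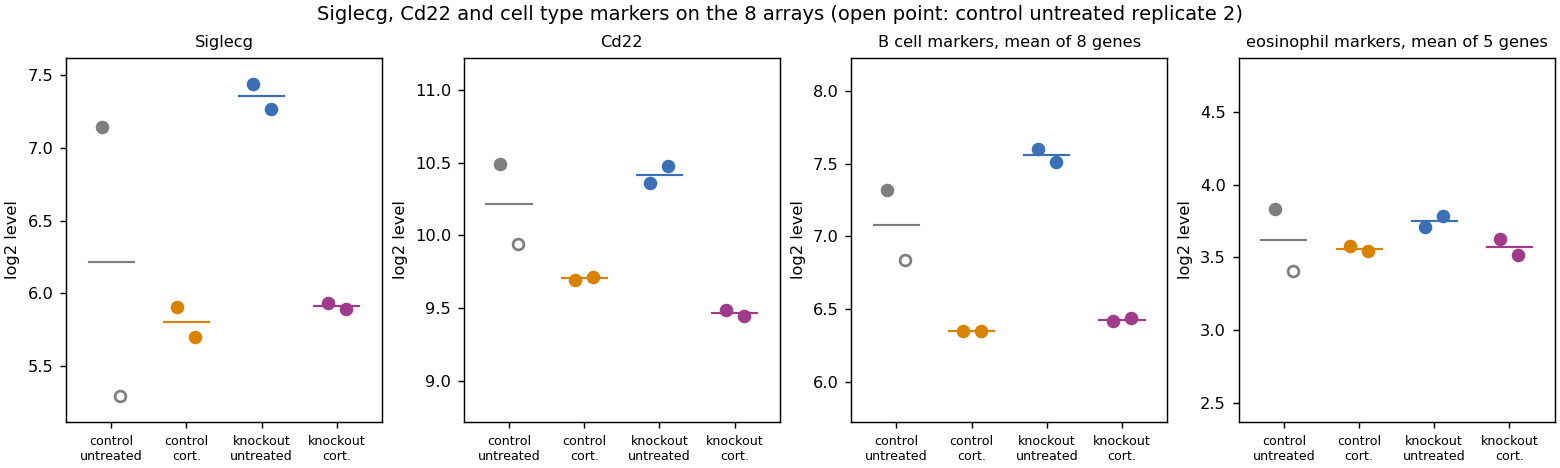
Log2 level of Siglecg, of Cd22 and the mean log2 level of the B cell and eosinophil markers on each array, by group; lines are means of 2 arrays, the open point is control untreated replicate 2, and every axis spans the same number of log2 units. The B cell marker mean is lower on all 4 treated arrays, with Ebf1 at 11.99 entering the open point. The eosinophil mean is lower on them over the filled points, by less, and of its genes only Il5ra does not overlap.

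Eosinophil markers stand beside Siglecf because eosinophils carry it. Without the array that stood apart their mean over 5 genes lay between 3.71 and 3.83 on the untreated and between 3.52 and 3.63 on the treated arrays, with no overlap, and on that array it was 3.41. Of the 5, none passed in control cells and 1, Il5ra, fell in knockout cells, by 0.96, with 7 arrays. Il5ra, a subunit of the interleukin-5 receptor, read 5.55 and 4.81 in control cells without and 5.11 and 4.34 with corticosterone, and 5.87 and 5.53 in knockout cells without and 4.68 and 4.81 with it. Its treated arrays lay below its untreated ones in both genotypes once control untreated replicate 2, at 4.81, was left out. Over the same 7 arrays Epx, Prg2, Prg3 and Ccr3 each overlapped between treated and untreated arrays. The gap in the marker mean thus rests on Il5ra. Epx, the eosinophil peroxidase, lay between 3.48 and 3.74 and Prg2, the major basic protein, between 2.59 and 3.02 over the 8 arrays, where the 25th percentile of an array lay between 3.49 and 3.62. The part of eosinophils in the difference of Siglecf was not tested.

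Cd33 was slightly higher with corticosterone in both genotypes. Its product is the myeloid receptor that names the branch. The level was 8.31 and 7.97 in control cells without and 8.45 and 8.46 with corticosterone, and 8.28 and 8.19 in knockout cells without and 8.48 and 8.43 with it. The 4 treated arrays lay above the 4 untreated ones. The difference was 0.14 (SE 0.09) in control and 0.22 (SE 0.07) in knockout cells with 7 arrays, and 0.32 (SE 0.17) in control cells with 8. Over the 7 arrays its range of 0.29 was the narrowest of the members, against 1.34 for Siglecf and 1.74 for Siglecg.

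Siglece encodes an inhibitory receptor of neutrophils and macrophages. It read 5.72 and 4.65 in control cells without and 6.13 and 6.11 with corticosterone, and 5.81 and 5.92 in knockout cells without and 5.91 and 5.68 with it. The control groups did not overlap, and the knockout groups did. The difference was 0.40 (SE 0.17) in control and -0.07 (SE 0.14) in knockout cells with 7 arrays. With 8 arrays the control value was 0.94 (SE 0.36), since control untreated replicate 2 was the lowest of the 8.

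Mag, the myelin-associated glycoprotein, is a Siglec of oligodendrocytes and Schwann cells. It read 5.77 and 4.77 in control cells without and 5.41 and 5.42 with corticosterone, and 5.75 and 5.64 in knockout cells without and 5.34 and 5.28 with it. Treated knockout arrays lay below untreated ones, and control untreated replicate 2 lay below both treated control arrays. The difference was -0.36 (SE 0.16) in control and -0.39 (SE 0.13) in knockout cells with 7 arrays, and the control value turned to 0.14 (SE 0.33) with 8. None of 7 oligodendrocyte markers passed in either genotype, and their levels were far apart. Mog, which is confined to that lineage, lay between 2.91 and 3.39, and Mobp between 4.0 and 4.4. Opalin lay between 5.0 and 5.4 and Sox10 between 5.3 and 5.5. Higher were Cldn11, between 6.1 and 10.7, Mbp, between 10.5 and 11.3, and Cnp, between 11.2 and 11.7.

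Siglech and the brightest probe set of Siglec1 had no hormone difference beyond its SE. Siglech, a receptor of plasmacytoid dendritic cells, lay below the array median on all 8 arrays, at 4.67 and 4.64 (control untreated), 4.61 and 4.41 (control corticosterone), 4.94 and 4.76 (knockout untreated) and 4.76 and 4.79 (knockout corticosterone). Its difference was -0.16 (SE 0.18) in control and -0.07 (SE 0.15) in knockout cells with 7 arrays. Of 6 plasmacytoid dendritic cell markers 2 fell in knockout cells with 7 arrays (limma, adjusted p under 0.05), where 7.95% of all genes fell. The mean over the 6 lay between 7.22 and 7.31 on treated arrays. Without the array that stood apart it lay between 7.55 and 7.75 on untreated ones. On that array it was 7.41, and there Tcf4, 1 of the 6, read 12.51 against 11.33 to 11.51 elsewhere. The brightest Siglec1 probe set differed by 0.05 (SE 0.18) in control and 0.02 (SE 0.15) in knockout cells. The second differed by 0.24 (SE 0.22) and -0.40 (SE 0.18), and by 0.57 (SE 0.28) in control cells with 8 arrays. The third differed by -0.06 (SE 0.18) and -0.07 (SE 0.15).

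**Figure D3:**
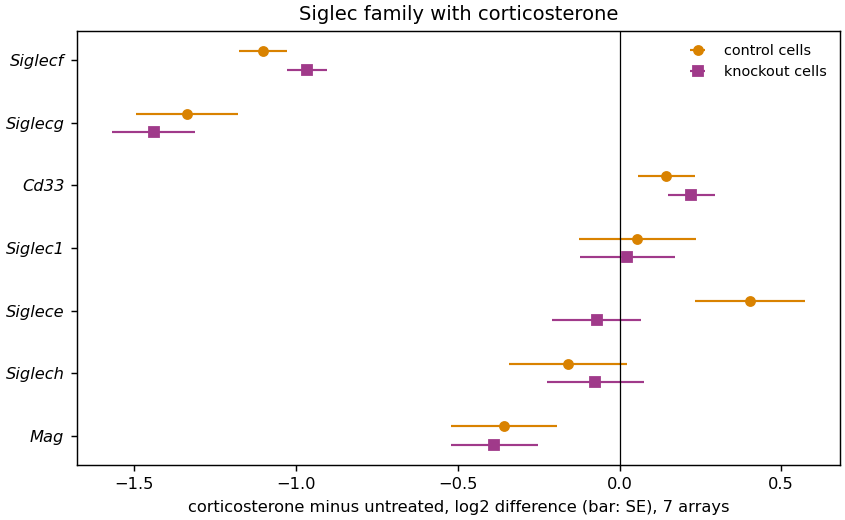
Corticosterone minus untreated, as a log2 difference with its SE, for the 7 genes in control (circles) and knockout cells (squares), from 7 arrays. Siglecf and Siglecg lie near or below -1 in both genotypes, Mag near -0.4, and Cd33 above 0.

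Counted by arrays alone, treated and untreated groups did not overlap for 4 members in control cells with 8 arrays, Cd33 and Siglece above and Siglecf and Siglech below, and for 43% of all genes. With 7 arrays Siglecg and Mag joined those below, which makes 6 members, against 78.4% of all genes. In knockout cells the groups did not overlap for 4 members, Cd33 above and Siglecf, Siglecg and Mag below, and for 50.6% of all genes. Nothing is read from these counts, since the members were chosen with this contrast in view. The comparisons in control and in knockout cells share no array. The median difference over the 7 members was -0.16 in control and -0.07 in knockout cells with 7 arrays.

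The genes whose level followed a member most closely were ranked by Pearson's r over the 7 arrays, among genes with a range of at least 1 log2 unit. For Siglecf they were Slamf8, Zfp532 and Matk, each at r = 0.998, and 61 of 1074 genes exceeded 0.95. Over all 8 arrays r was 0.785 for Slamf8, 0.989 for Zfp532 and 0.595 for Matk. For Siglecg they were Gimap4 (r = 0.997), Dgkk (r = 0.996) and the B cell gene Ms4a1 (r = 0.995), and 141 genes exceeded 0.95. Over 8 arrays r was 0.670, 0.995 and 0.906 for these. For Cd33 they were Nrg4 (r = 0.987), Map3k6 (r = 0.977) and Sdcbp2 (r = 0.970), and each stayed above 0.95 over 8 arrays. Gfod1 led for Mag (r = 0.989, and 0.332 over 8 arrays), Shisa6 for Siglec1 (r = 0.974 and 0.933) and Lratd1 for Siglech, where r was 0.126 over 8 arrays. For Siglece the likest gene was Prom1, at r = 0.803, which turned to -0.84 over all 8 arrays. These values describe 7 points that fall into treated and untreated arrays for Siglecf, Siglecg, Cd33 and Mag, and carry no test.

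No member passed the threshold between genotypes in untreated cells. The question is whether the receptor sets the level of these genes when no hormone is added. With 8 arrays 0 of 7 members passed (limma, adjusted p under 0.05), against 0% of all genes, and 1 member, Siglecf, had an unadjusted p under 0.05, as 4.44% of all genes did. With 7 arrays 0 of 7 passed, against 1.99% of all genes, and 2 had an unadjusted p under 0.05, Siglecf and Siglec1, against 14.3% of all genes.

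Siglecf read 10.39 and 10.36 in untreated knockout cells and 10.68 and 10.82 in untreated control cells, so the knockout arrays were the lower pair. The difference was -0.31 with 7 arrays (SE 0.08, 95% interval -0.48 to -0.14, limma adjusted p = 0.0844) and -0.38 with 8 (SE 0.11, adjusted p = 0.486). Over the alternatives run with 7 arrays its adjusted p lay between 0.0544 and 0.307. In treated cells Siglecf was also lower on both knockout arrays, with a difference of -0.17 (SE 0.06, 95% interval -0.31 to -0.04, limma adjusted p = 0.346 with 7 arrays), which did not pass.

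In untreated cells the genotype differences of Siglecg, Siglece and Mag each moved by about 0.5 or more with the array that stood apart. For Siglecg it was 0.21 (SE 0.16, limma adjusted p = 0.614) with 7 arrays and 1.13 (SE 0.58, adjusted p = 0.486) with 8. For Siglece it was 0.15 (SE 0.17) and 0.68 (SE 0.36), and for Mag -0.08 (SE 0.16) and 0.42 (SE 0.33), none of which passed. Among the B cell markers 1 of 8, Cd79a, was higher in untreated knockout cells with 7 arrays, by 0.51 (limma adjusted p = 0.0246).

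Siglec1 encodes sialoadhesin, a receptor of tissue macrophages that type I interferon is known to raise. Its brightest probe set read 6.16 and 6.15 in control cells without and 6.31 and 6.12 with corticosterone, and 6.60 and 6.56 in knockout cells without and 6.78 and 6.43 with it. All 4 knockout arrays lay above all 4 control arrays. The difference was 0.42 in untreated cells (SE 0.18, 95% interval 0.01 to 0.83, limma adjusted p = 0.332) and 0.39 in treated cells (SE 0.15, 95% interval 0.06 to 0.72, adjusted p = 0.404) with 7 arrays, and neither passed. With 8 arrays it was 0.43 (SE 0.20, limma adjusted p = 0.486) and 0.39 (SE 0.20, adjusted p = 1). The other probe sets of Siglec1 did not follow it in all comparisons. The second read 4.61 and 3.94 (control untreated), 4.74 and 4.95 (control corticosterone), 4.98 and 5.35 (knockout untreated) and 4.88 and 4.65 (knockout corticosterone), with differences of 0.56 (SE 0.22) in untreated and -0.08 (SE 0.18) in treated cells with 7 arrays, and 0.89 (SE 0.28) in untreated cells with 8. The third, which lay between 4.23 and 4.79, differed by -0.07 in both conditions (SE 0.18 untreated and 0.15 treated). Both read below the array median on every array. The gene lies at chr2:131067801-131086778 (GRCm38.p6), apart from the other members, which are on chromosome 7.

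Interferon-induced genes are set beside Siglec1, with 11 of them measured. Their mean lay between 7.60 and 7.81 over the 7 arrays and at 7.34 on control untreated replicate 2. With 7 arrays none passed between genotypes in untreated cells, and in treated cells 1, Rsad2, was lower in knockout cells, with a difference of -0.28 (SE 0.05, limma adjusted p = 0.0334). This call of Rsad2 held in 8 of 15 alternatives. It was lost when replicate 1 or 2 of the treated control arrays or replicate 2 of the treated knockout arrays was left out. The replicate block, averaging its probe sets, testing every probe set and leaving out the variance trend each lost it too.

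With corticosterone present 0 of 7 members passed between genotypes with either fit. All genes gave 0% with 8 arrays and 1.63% with 7 (limma, adjusted p under 0.05). With 7 arrays 3 members had an unadjusted p under 0.05, Siglecf, Siglec1 and Siglece, against 9.82% of all genes, and with 8 arrays none had, against 1.26%. Siglece differed by -0.33 in treated cells (SE 0.14, 95% interval -0.64 to -0.01, limma adjusted p = 0.483 with 7 arrays). Siglech differed by 0.26 (SE 0.15, adjusted p = 0.663), with both knockout arrays above both control arrays. Cd33 did not differ by more than its error, at -0.0003 (SE 0.07, 95% interval -0.16 to 0.16). The groups did not overlap for 5 members in treated cells, Siglec1 and Siglech above and Siglecf, Siglece and Mag below, against 42% of all genes. In untreated cells they did not overlap for 5 members with 8 arrays, Siglecf below and Siglec1, Siglece, Siglecg and Siglech above, against 33.7% of all genes, and for all 7 with 7 arrays, where the control group is a single array and 70.3% of all genes did the same.

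**Figure D4:**
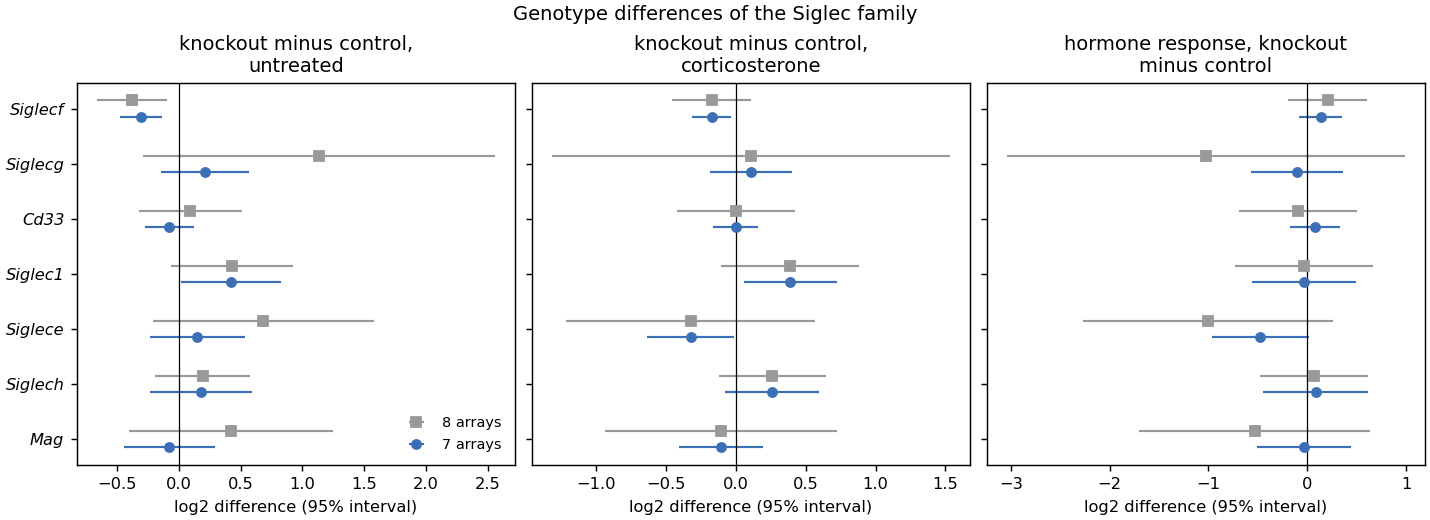
Log2 difference between knockout and control cells without and with corticosterone, and the difference between their hormone responses, with 95% intervals, for the 7 genes from 8 arrays (squares) and 7 arrays (circles); each panel has its own axis. Intervals of Siglecg, Siglece and Mag are much wider with 8 arrays, and no gene passes after adjustment in any panel.

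The hormone response of no member differed between genotypes past the threshold. With 8 arrays 0 of 7 passed, against 0% of all genes, and with 7 arrays 0 of 7, against 0.0165% (limma, adjusted p under 0.05), and none had an unadjusted p under 0.05 with either, against 1.09% and 5.85% of all genes. For Siglecf the response of knockout cells minus that of control cells was 0.14 with 7 arrays (SE 0.10, 95% interval -0.08 to 0.35, limma adjusted p = 0.925), so the interval covers responses that are alike and ones that differ by up to 0.35. For Siglecg it was -0.10 (SE 0.20, 95% interval -0.56 to 0.36, adjusted p = 0.976) with 7 arrays and -1.03 (SE 0.81, adjusted p = 0.719) with 8. For Siglece it was -0.47 (SE 0.22, 95% interval -0.97 to 0.02, adjusted p = 0.865) with 7 arrays and -1.01 (SE 0.51, adjusted p = 0.719) with 8.

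Around the receptors stand the enzymes that make, attach and remove sialic acid, the proteins that carry it, and the kinases and phosphatases of ITIM signalling. With Cd22, other inhibitory receptors and interferon-induced genes they make up a list of 81 partner genes, of which 73 were measured. With 8 arrays none of the 73 passed in either genotype with corticosterone, against 0.17% of all genes in control and 0.148% in knockout cells (limma, adjusted p under 0.05). With 7 arrays 7 rose and 11 fell in control cells, where 10.8% of all genes passed, and 7 rose and 16 fell in knockout cells, where 13.7% did. By share, 9.59% of the partners rose and 15.1% fell in control cells, and 9.59% and 21.9% in knockout cells, against 4.85% and 5.95%, and 5.75% and 7.95%, of all genes. The same direction was called in both genotypes for 15 genes, 83.3% of those called in control and 65.2% of those called in knockout cells, and for none were the directions opposite. Through all alternatives run with 7 arrays 10 of the 18 calls in control and 14 of the 23 in knockout cells remained. The values below are from 7 arrays.

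Of 13 ITIM signalling genes, 3 rose and 2 fell in control cells and 2 rose and 3 fell in knockout cells. Fgr, a Src family kinase of myeloid cells, read 10.23 and 9.47 in control cells without and 8.27 and 8.44 with corticosterone, and 10.40 and 10.45 in knockout cells without and 8.30 and 8.49 with it. The treated arrays were the lower ones in both genotypes, with no overlap. Fgr fell by 1.88 in control cells (SE 0.10, limma adjusted p = 3.85e-06) and by 2.03 in knockout cells (SE 0.08, adjusted p = 3.48e-07), and with 8 arrays the control difference was -1.50 (SE 0.26, adjusted p = 0.187). Inpp5d, the lipid phosphatase SHIP-1, rose by 0.43 and 0.35. Its level was 11.43 and 10.75, then 11.84 and 11.87, in control cells without and with hormone, and 11.48 and 11.51, then 11.86 and 11.84, in knockout cells. Socs3, a feedback inhibitor of cytokine signalling, differed by 0.78 and 0.84. In control cells it read 5.83 and 9.32 without and 6.56 and 6.65 with corticosterone. The untreated control array left out thus lay above both treated ones. The Socs3 call was lost in control cells without either treated control array, with the replicate block and without the variance trend. In knockout cells it was lost without replicate 1 of the treated arrays. The phosphatases that ITIMs recruit did not pass: Ptpn6 (SHP-1) differed by -0.08 (SE 0.06) and -0.12 (SE 0.05), and Ptpn11 (SHP-2) by -0.01 in both (SE 0.04 and 0.03). Tyrobp, which encodes DAP12, the partner of Siglec-H, differed by -0.06 (SE 0.03) and -0.01 (SE 0.02).

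Npl, the lyase that breaks down free sialic acid, was the only 1 of 6 removal genes that passed. It read 7.95 and 6.52 in control cells without and 8.85 and 8.89 with corticosterone, and 7.63 and 7.65 in knockout cells without and 8.65 and 8.73 with it. Npl rose by 0.92 in control cells (SE 0.09, limma adjusted p = 0.000153) and by 1.05 in knockout cells (SE 0.07, adjusted p = 1.22e-05), and by 1.63 in control cells with 8 arrays (SE 0.44), which did not pass (adjusted p = 0.430). Of 7 synthesis genes, none rose and 1 fell in control cells, and 1 rose and 2 fell in knockout cells. Nans, the sialic acid synthase, fell by 0.27 in control and by 0.38 in knockout cells. In control cells it read 10.44 and 9.71 without and 10.18 and 10.17 with corticosterone. The untreated control array left out thus lay below both treated ones. The control call of Nans was lost without any 1 of the 4 corticosterone arrays and without the variance trend. Cmas, which activates sialic acid for transfer, rose by 0.12 in knockout cells (SE 0.03, limma adjusted p = 0.0269), a call that held in 7 of 15 alternatives, and differed by 0.11 in control cells (adjusted p = 0.0989). Cmah, the hydroxylase that turns Neu5Ac into Neu5Gc, fell by 1.40 in knockout cells (SE 0.22, adjusted p = 0.00230), where it read 5.57 and 6.22 without and 4.32 and 4.67 with hormone. The call held in all 14 alternatives run with 7 arrays, and the difference was -0.53 when its probe sets were averaged. In control cells, at 4.97 and 3.88 without and 4.38 and 4.37 with it, Cmah differed by -0.60 (SE 0.27, adjusted p = 0.233). The difference between the genotypes' responses was -0.80 (SE 0.35) and did not pass (limma adjusted p = 0.852), nor did that of any other partner gene with either fit.

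Of 17 sialyltransferases 1 rose and 2 fell in control cells and 1 rose and 3 fell in knockout cells. St3gal5, which makes the ganglioside GM3, rose by 0.34 and 0.29, and its call in control cells needed the variance trend (adjusted p = 0.0576 without it). St6gal1, which adds the sialic acid that CD22 binds, differed by -0.20 and -0.19. In control cells it read 10.72 and 9.42 without and 10.52 on both arrays with corticosterone. The untreated control array left out thus lay below both treated ones. The St6gal1 calls were lost in control cells without any 1 of the 4 corticosterone arrays and in knockout cells without either treated knockout array. Averaging its probe sets or leaving out the variance trend also lost the call in each genotype. St6galnac3 was the partner gene called between genotypes in untreated cells, higher in knockout cells by 0.86 (SE 0.16), against 1 control array. It read 3.71 and 8.20 in untreated control cells and 4.61 and 4.53 in untreated knockout cells. The control array left out, at 8.20, thus lay far above both knockout arrays. The call held in 4 of 13 alternatives. It was lost when any 1 treated array or replicate 2 of the untreated knockout arrays was left out. The replicate block, testing every probe set and fitting only the arrays compared each lost it too. So did averaging its probe sets, where the difference was 0.17.

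Among 6 ligand carriers, 2 fell in each genotype. Spn, the sialomucin CD43, read 8.62 and 6.70 in control cells without and 7.75 and 7.50 with corticosterone, and 8.92 and 8.70 in knockout cells without and 7.76 and 7.80 with it. Spn fell by 0.99 in control and by 1.03 in knockout cells, and with 8 arrays its control difference was -0.03 (SE 0.59). Cd24a, whose product is a ligand of Siglec-G, fell by 0.40 and by 0.47.

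Among 12 other inhibitory receptors, 1 rose and 2 fell in each genotype. Cd300lf, a myeloid inhibitory receptor for lipids, rose by 0.86 in control cells and by 0.78 in knockout cells. Cd72, an inhibitory receptor of B cells, fell by 0.75 and by 0.78, and Clec4a2, the dendritic cell immunoreceptor, by 0.64 and by 0.57. With 8 arrays the control difference of Clec4a2 turned to 0.11 (SE 0.45), since control untreated replicate 2 read 9.06 against 10.55 on replicate 1.

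Of the 11 interferon-induced genes 1 rose and 1 fell in control cells, and 1 rose and 3 fell in knockout cells. Irf7, a transcription factor of the interferon response, rose by 0.57 and 0.42, and its call in knockout cells was lost without replicate 2 of the treated knockout arrays (adjusted p = 0.0630). Rsad2, the antiviral protein viperin, fell by 0.39 and by 0.38, and its call in control cells needed the variance trend (adjusted p = 0.0661 without it).

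**Figure D5:**
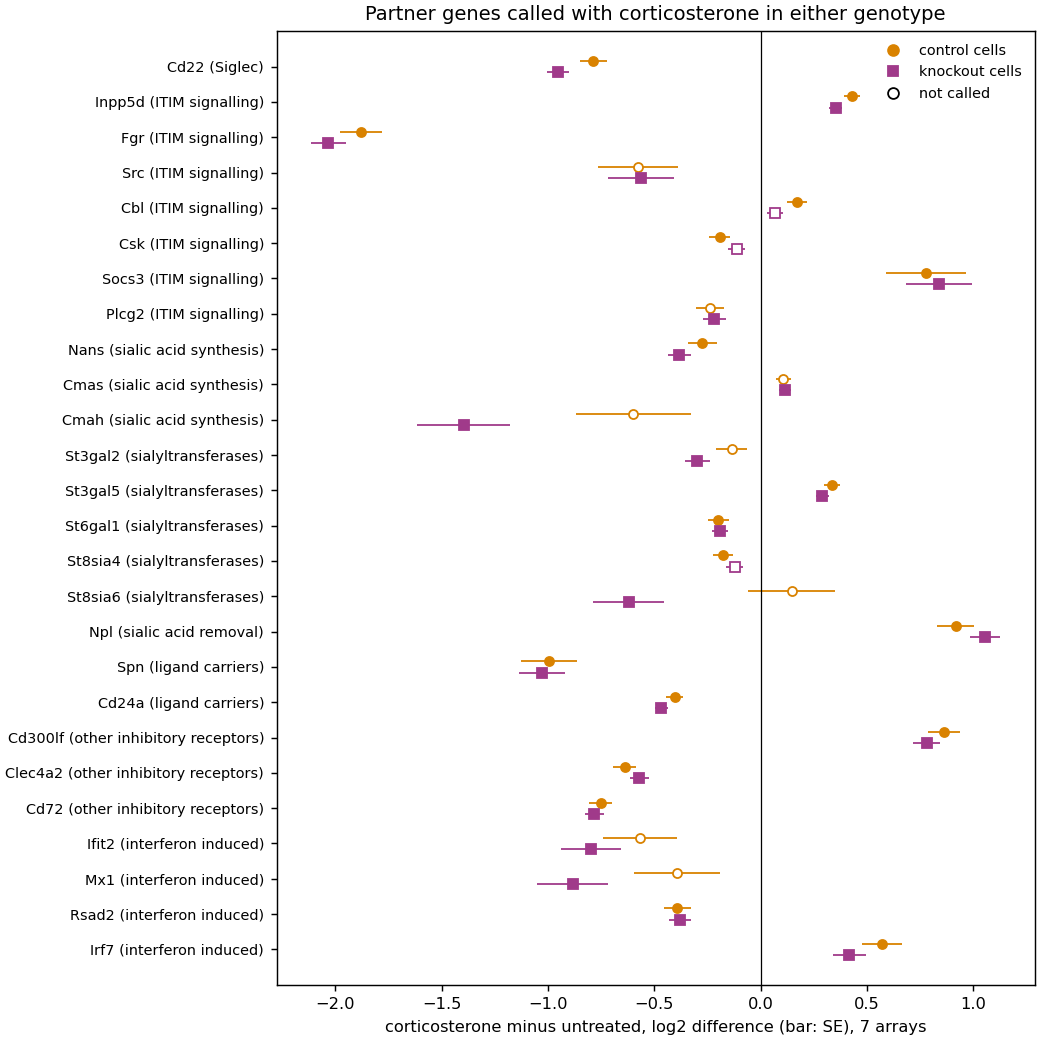
Corticosterone minus untreated, as a log2 difference with its SE, for the 26 partner genes called in either genotype from 7 arrays; open symbols did not pass in that genotype. Fgr lies near -2 in both genotypes, Npl, Cd300lf and Socs3 lie highest, and control and knockout values lie close together for most genes.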

How the data were processed

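RNA of peritoneal macrophages was measured on Affymetrix mouse arrays, 8 arrays in 4 groups of 2. The authors deposited 1 log2 level per probe set and array, made with RMA in R 2.7 per the submitters' processing notes; RMA subtracts background, makes the arrays' distributions alike and summarises probes, so values are relative to the rest of an array and low values are compressed. No detection call comes with the values, and precision is limited by how few arrays there are.

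The 45101 probe sets held 64 controls, 34945 with a single annotated gene, 932 with several and 9160 not named here. Symbols were matched by identifier to RefSeq's table (GRCm38.p6) for 34741 and kept for 204. Each gene took its probe set with the highest mean, which left 18193 genes.

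limma 3.58.1 in R 4.3.3 was fitted with 1 coefficient per group and a variance trend, on 8 arrays and on 7, with Benjamini-Hochberg adjustment over all genes, two-sided, called under 0.05. The median SE of a difference between treated groups was 0.2 (8 arrays) and 0.105 (7 arrays) log2 units. The fit was tested on simulated data. Promoter windows came from RefSeq (GRCm38.p6), 32851 windows of 27025 genes.

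The members, the gene lists and the choice of the 7 arrays were made with earlier results of these data known. Named are all members, up to 4 partner genes per list with the smallest p in a contrast, and the 3 likest genes per member; Ptpn6, Ptpn11, Tyrobp and single cell type markers were chosen after their values were seen. Some listed genes are not analysed here. Alternatives were another summary of probe sets, normalization, variance model, array weights, a filter on dim genes, a replicate block, fewer groups and leaving out each array; their effect is given at the end.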

Additional observations from a re-analysis of the deposited data

Results flagged for a closer look

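Siglece was the member whose knockout and control arrays did not overlap in either condition while its genotype difference ran in opposite directions without and with hormone. Without hormone both knockout arrays (5.81 and 5.92) lay above the control arrays (5.72 and 4.65), and with corticosterone both (5.91 and 5.68) lay below them (6.13 and 6.11). The difference between these differences was -1.01 with 8 arrays (SE 0.51, limma adjusted p = 0.719) and -0.47 with 7 (SE 0.22, adjusted p = 0.865), and it passed with neither.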

How the results depend on the processing

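The 8-array results hinge on control untreated replicate 2. Leaving out each array in turn, 0 to 5 members were called between genotypes in untreated cells, 0 to 4 in the interaction, 0 to 59 partner genes with corticosterone in control cells and 0 to 23 in knockout cells; the highest member counts and the 59 came without replicate 1 of that group, where the aberrant array alone stands for untreated controls and the fit calls 64.4% of all genes in the first comparison. Without replicate 2 the partner counts were 18 and 23. In knockout cells with 8 arrays, array weights gave 21 partner genes and a fit of only the arrays compared gave 19. With 7 arrays the 18 partner genes called in control cells became 11 without the variance trend. In 279 combinations of a member, a tested comparison and an alternative with 7 arrays, 0 passed. Replicate numbers were not taken to pair the samples. Correlations between same-numbered deviations lay between -0.29 and 0.40, highest between the 2 untreated groups, and do not settle whether the numbers pair. With the replicate number as a block 0 members were called in any tested comparison with either fit, and with 7 arrays 14 partner genes were called in control and 20 in knockout cells. The 7-array fit without control untreated replicate 1 was not run where it needs that group, since no array is left in it. Levels near the array median are where RMA compresses differences. This holds for Siglece, Siglech, Mag, the Siglec1 probe sets and, with corticosterone, Siglecg.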

Other observations

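Markers of cell types beyond those set beside the members also moved with corticosterone with 7 arrays (limma, adjusted p under 0.05), where 4.85% of all genes rose and 5.95% fell in control and 5.75% rose and 7.95% fell in knockout cells. Of 8 T and NK cell markers 5 fell in each genotype, with a median of -0.87 in control and -0.94 in knockout cells. Of 7 mast cell and basophil markers, cells that also carry Siglecs, 3 rose in each genotype, with medians of 0.32 and 0.36. Of 8 resident peritoneal macrophage markers 2 rose and 1 fell in control and 2 rose in knockout cells, of 8 macrophage identity markers 4 rose and 1 fell in each, of 5 dendritic cell markers 2 fell in each and 1 rose in knockout cells, and of 8 neutrophil markers 1 fell in control and 2 fell in knockout cells. Of 10 mesothelial and fibroblast markers none passed in control and 3 rose in knockout cells. With all 8 arrays 1 macrophage identity marker rose in each genotype, 1 T and NK cell marker fell in knockout cells, and no other marker of these lists passed. The part of these cells in the levels of the members was not tested.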
